A study of Arabidopsis thaliana with 12 samples.

Results

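Among 8162 nuclear Arabidopsis thaliana genes with at least 200 RNA polymerase II reads in mock seedlings, 300 genes had the smallest part of those reads at the transcription start site (TSS), and they are described here. Read counts in a TSS window and in a gene body window were summed over the 6 mock libraries, and the TSS share was the TSS count divided by the sum of both. The genes were selected on that measured share, and the lowest were kept. Of 29899 nuclear genes with both windows, 8162 reached the minimum sum. The mock TSS share chose the 300 genes, so it is given as a description with no test.

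In plants, RNA polymerase II collects near both ends of many genes, and the balance of reads between the start and the body reflects how polymerase is spread along a gene. Serine 5 phosphorylation (S5P) of the C-terminal domain is typical of polymerase early in the gene, and serine 2 phosphorylation (S2P) of polymerase that elongates through the body. TFIIS is an elongation factor that lets backtracked polymerase cleave its transcript and resume, and mutated TFIIS forms that cannot support this cleavage are used to hold polymerase in arrest.

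Chromatin immunoprecipitation with sequencing was made from Columbia seedlings at 10 days after sowing in the tfIIs-1 background, an insertion line of the TFIIS gene AT2G38560. The 3 S2P induced libraries came from plants given 2 mM β-estradiol for 24 h to express GFP-TFIIS, a green fluorescent protein fusion. The 3 S2P mock libraries came from plants given ethanol (EtOH). The 3 S5P induced libraries came from plants given the same estradiol dose to express GFP-TFIISmut, and the 3 S5P mock libraries from plants given ethanol. The labels tie each antibody to 1 induced protein, so a difference between antibodies cannot be told apart from one between proteins; the title of the series names the mutated form alone. Effects of estradiol and of the induced protein cannot be told apart either, and no input chromatin was used here. The labels name neither the promoter of the transgene nor the number of lines, and nothing says whether replicates were grown apart, so the p-values below reflect a spread between libraries that may be technical.

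Whole gene counts ran from 115868 to 2537034 per library. S2P induced 3 (210421 counts) and S5P induced 2 (115868 counts) were shallow and stood apart in several measures below, while S2P mock 1 (159951 counts) and S2P mock 2 (192044 counts) were as shallow. S2P mock 3 alone supplied 49.3% of the window counts of the 300 genes in mock, so it carried much of the choice. The TFIIS gene itself had 61.8 to 125 CPM (counts scaled to the library's total in nuclear genes) in S2P induced libraries. In S2P mock libraries it had 18.8 to 67.7 CPM. The S5P induced libraries had 43.2 to 179 CPM, against 46.9 to 58.9 CPM in S5P mock libraries. Its groups overlapped for both antibodies, but only through the shallow S2P induced 3 (61.8 CPM) and S5P induced 2 (43.2 CPM). S2P induced 1 was at 93.9 CPM, S2P induced 2 at 125 CPM. S5P induced 1 was at 156 CPM, S5P induced 3 at 179 CPM. Each of these libraries lay above every mock library of either antibody. Summed over 3 shoot markers, occupancy was 42.8 to 106 CPM in S2P induced against 67.7 to 231 CPM in S2P mock libraries, and 43.2 to 147 CPM in S5P induced against 149 to 425 CPM in S5P mock libraries. Of these markers, the chlorophyll a/b binding protein gene CAB1 was at 0 in S5P induced 2. For S5P only the sums and the carbonic anhydrase gene CA1 separated the groups, while CAB1 and the Rubisco small subunit gene RBCS1A overlapped, and the part of this in the results below was not tested. Summed over 4 seed storage and oil body genes, which a seedling should not transcribe, it was 20.9 to 42.8 CPM in induced and 27.6 to 62.5 CPM in mock libraries. With no input chromatin, the part of background in these and all other counts was not tested. The 2 root hair markers together had 14.7 to 57.0 CPM in induced and 12.5 to 35.8 CPM in mock libraries.

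The 300 genes were long and held nearly all of their polymerase reads in the gene body. Their median TSS share in mock was 3.41%, against 14.2% in the other 7862 genes. Their median TSS count over the 6 mock libraries was 23, against 46.5 in the others, while their median gene body count was 679, against 259. The median gene length, from RefSeq annotation of assembly TAIR10.1, was 6808.5 bases in the 300 genes and 3193 bases in the other genes. Per kilobase of gene, gene body occupancy was similar in size, with a median of 21.7 CPM per kb in the 300 genes and 18.5 CPM per kb in the others. As no source used here states where the windows begin and end, the whole gene length was the denominator.

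Longer genes had lower TSS shares. Of genes of 12000 bases or more, 66.7% (42 of 63) were among the 300, against 26.8% (63 of 235) at 8000 to 12000 bases, 12.1% (71 of 586) at 6000 to 8000 bases and 0.339% (4 of 1180) under 2000 bases. Across 8157 genes with a length, Spearman's rho between TSS share and gene length was -0.60 in induced and -0.66 in mock libraries. These are correlations across genes of the same pooled libraries, given as descriptions. The share was not scaled to window length, so at equal occupancy per base a longer gene body window lowers it by definition. How much of the relation to length comes from this was not tested.

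**Figure D1:**
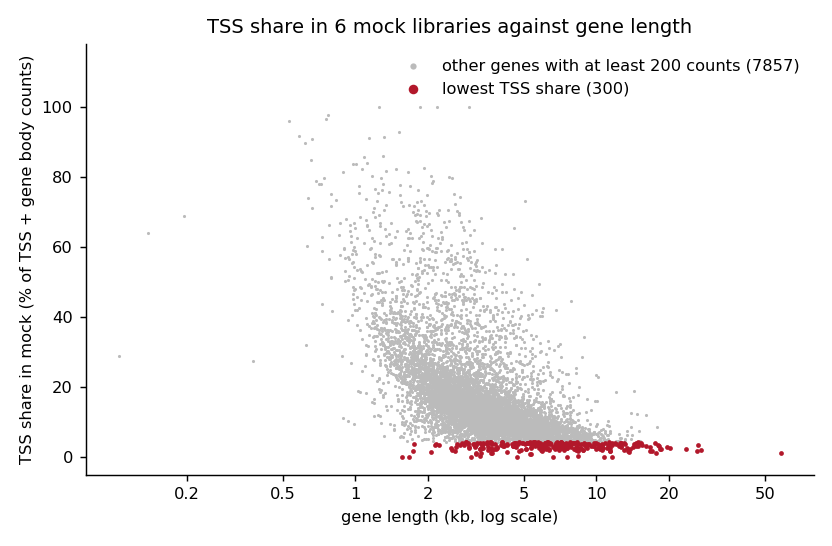
TSS share in the 6 mock libraries (percent of TSS plus gene body counts) against gene length on a log axis, 1 point per gene, red for the 300 genes with the lowest shares and grey for the others. The share falls with length, and the red points run from 1559 to 58519 bases along the bottom, at 0 to 4.38%.

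The boundary of the group was not a gap. Just inside it were XIK, a myosin heavy chain gene, with a mock TSS share of 4.37% (47 of 1075 counts), KIN10, a subunit of the energy-sensing SnRK1 kinase, with 4.38% (38 of 868), and AAE16, an acyl-activating enzyme gene, with 4.38% (12 of 274). Just outside it were AT1G45150 with 4.38%, AT1G35220 with 4.39% and AT3G15980 with 4.39%. With 12 to 47 TSS counts behind each of the 3 inside values, the order at the boundary is finer than the counting error.

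By annotation, 291 of the 300 genes were protein coding and 9 were pseudogenes. The files give no product descriptions, so functions were read from gene names only, and 102 of the 300 had no descriptive name. The group included 5 of 12 glucan synthase-like genes with at least 200 counts, which make callose, the cell wall polymer of cell plates and plasmodesmata. The 5 were GSL8, GSL12, GSL03, GSL09 and GSL04, with lengths of 10471 to 16053 bases, and their TSS shares were 2.62% to 5.88% in induced and 3.29% to 4.16% in mock libraries. It also included 5 of 18 myosin genes, motors that move organelles along actin, with 1.85% to 7.28% in induced and 2.12% to 4.37% in mock libraries. Of 17 kinesin genes 3 were in the group, namely KAC2, which acts in chloroplast movement, and POK1 and POK2, which orient the division plane.

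Other named groups were those of ubiquitin ligases, RNA decay, auxin response and lipid signalling. UPL1, UPL6 and KAK (UPL3), HECT-type ubiquitin ligases, were 3 of 7 genes of that family with enough counts, with TSS shares of 1.95% to 6.63% in induced and 2.62% to 3.43% in mock libraries. XRN2 and XRN3, nuclear 5′ to 3′ exoribonucleases, were 2 of 3 XRN genes, with 7.62% and 8.42% in induced and 4.07% and 4.16% in mock libraries. The auxin response factor genes ARF1, ARF4, ARF19 and NPH4 (ARF7) were 4 of 11, with 3.25% to 8.71% in induced and 3.94% to 4.33% in mock libraries. Suppressor of actin genes, which encode phosphoinositide phosphatases, were 3 of 6, with 2.54% to 3.35% in induced and 1.94% to 4.03% in mock libraries. The members of these families outside the group had higher mock TSS shares by the rule itself, with medians from 6.79% for myosins to 9.99% for UPL genes among the families named in this and the previous paragraph.

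Chromatin and DNA genes were counted by name, 15 among the 300 (5%) and 179 among all 8162 (2.19%). SYD, a SWI2/SNF2 chromatin remodeller of 17067 bases, had a TSS share of 4.26% in induced libraries (95% exact Clopper-Pearson interval 3.38% to 5.30%, counting error only) and 1.67% in mock libraries (1.05% to 2.52%). HAC1, a histone acetyltransferase gene of 8399 bases, had 3.63% (2.92% to 4.45%) in induced and 2.13% (1.52% to 2.90%) in mock libraries. Motor protein genes made up 8 of the 300 (2.67%) and 34 of the 8162 (0.417%), and ubiquitin system genes 10 (3.33%) and 115 (1.41%). Transporter or ATPase genes were 10 (3.33%) and 253 (3.10%). Such counts miss genes whose names do not state their function, and no enrichment was tested. The median length of the members ran from 6139 bases for the transporter or ATPase genes to 10610 bases for the motor protein genes among these 4 classes.

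The kinase genes TOR and ATM, regulators of growth and of the DNA damage response, show how few reads the TSS windows held. TOR, 17748 bases long, had 8, 13 and 0 TSS counts in the S2P induced libraries and 2, 2 and 3 in the S2P mock libraries. In the S5P libraries it had 8, 0 and 12 TSS counts in induced and 3, 2 and 2 in mock. Summed, that was 3.51% (interval 2.53% to 4.73%) of 1169 window counts in induced and 1.26% (0.691% to 2.11%) of 1111 in mock libraries. The share of TOR was thus higher in induced libraries, although its TSS window was empty in the shallow S2P induced 3 and S5P induced 2. ATM, 27265 bases long, had 0.668% (0.306% to 1.26%) in induced and 1.94% (1.28% to 2.81%) in mock libraries. It had 5, 0 and 0 TSS counts in the S2P induced and 0, 0 and 10 in the S2P mock libraries, so that all S2P mock counts came from the deepest library. For S5P it had 3, 0 and 1 TSS counts in induced and 9, 4 and 4 in mock. The intervals of induced and mock libraries do not overlap for either gene, but they treat pooled reads as independent and leave out the spread between libraries.

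At the very bottom, 7 genes had no TSS count in any of the 12 libraries. They were ATBCAT-5, a branched-chain aminotransferase gene, AT5G17530, PGY2, a ribosomal protein gene, AT1G33120, AT5G27410, AT3G24870 and AT5G66230. ATBCAT-5 had 907 gene body counts in induced and 514 in mock libraries, and a count of 0 allows a TSS share of up to 0.331% there in induced and 0.584% in mock libraries. For the other 6 genes that limit was 0.565% to 1.28% in induced and 0.806% to 1.49% in mock libraries. PGY2 belongs to a family of near-identical ribosomal protein genes, so its counts are uncertain.

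Each of the 12 genes with the lowest mock shares overlaps another annotated gene. Beyond the 7, these were the chloroplast protein translocase gene SECA2, AT1G36990, the organellar isoleucyl-tRNA synthetase gene OVA2, the shaggy-like kinase gene SK42 and the magnesium transporter gene MGT3, with 1 or 2 TSS counts each in mock. Of all 300 genes, 115 (38.3%) overlap another gene, against 2539 of the other 7862 (32.3%). Counting with HTSeq can drop reads that fall on 2 genes, and no source used here states the strand setting; the part of this in the low shares was not tested. Without genes that overlap another one before ranking, an alternative chosen after seeing the data, 185 of the 300 were among the 300 lowest. These are the 185 members that overlap none, and leaving out other genes cannot displace them. That number was fixed in advance and does not check the group. Members with an overlap had a median TSS share of 3.97% in induced and 3.23% in mock libraries, and members with none 4.44% in induced and 3.51% in mock libraries.

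Short genes were few in the group. Of the 300 genes, 32 were shorter than the median of all 8162 genes, 3248 bases, and 18 of these 32 (56.2%) overlap another gene, against 33.0% of the 4078 short genes. AT3G23460, a gene of 2058 bases that overlaps none, had a TSS share of 1.19% (0.818% to 1.66%) in induced and 1.36% (0.976% to 1.85%) in mock libraries. It also had a gene body level of 626 CPM per kb in mock, where the median of the group was 21.7 CPM per kb. Its whole gene level was 271, 351 and 3963 CPM in S2P induced and 994, 2151 and 278 CPM in S2P mock libraries. For S5P it was 383, 1320.5 and 230 CPM in induced and 959, 1535 and 382 CPM in mock libraries. The shallow libraries were high and the deep ones low in both conditions, and the groups overlap.

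In 3 of the 300 genes the whole gene count was under 80% of the sum of the 2 windows, while the median over the 300 was 99.2%. These were the pseudogene AT3G31005, with 139 whole gene counts in mock against 815 gene body counts, the photosynthesis acclimation gene APE1 with 280 against 517, and the Nudix hydrolase gene NUDT22 with 440 against 568. The gene body window thus held reads that the whole gene count left out, and the gene body values of these 3 genes are uncertain. The longest member, the transcribed pseudogene AT5G32690 of 58519 bases, overlaps 11 other annotated genes, and had a TSS share of 1.98% (1.13% to 3.19%) in induced and 1.23% (0.640% to 2.15%) in mock libraries.

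Among the 10 genes with the highest gene body CPM in mock, levels per kilobase ranged from 45.8 to 626 CPM per kb. NIT1, a nitrilase gene, had 212 CPM per kb. HA1, a plasma membrane proton pump gene, had 91.5 CPM per kb, and BGAL1, a beta-galactosidase gene, 84.3 CPM per kb. TIC, a circadian clock regulator, had 69.3, HAC1 60.3, GLT1, a glutamate synthase gene, 57.2, and ATMIN7, which encodes a guanine nucleotide exchange factor of vesicle traffic, 47.7 CPM per kb. The locus-named genes AT2G08986 and AT1G58602 had 71.8 and 45.8 CPM per kb.

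In induced libraries the TSS shares of the same genes remained low, with a median of 4.33% against 17.3% in the other 7862 genes. In 223 of the 300 genes (74.3%) the share was higher in induced than in mock libraries, and so it was in 76.8% of the others. Since the genes were chosen for low mock shares, some return upward is built into the choice, and no test was made. In the induced ranking, 166 of the 300 were again among the 300 lowest and 274 among the 1000 lowest. At or under 4.38%, the highest mock share of the group, were 154 genes.

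Single genes spread widely in the induced libraries. The share was more than 2 times the mock share in 44 genes and over 10% in 6. AT5G08450 (HDC1), a subunit of a histone deacetylase complex, had 12.1% (9.73% to 14.9%) in induced and 4.33% (2.58% to 6.75%) in mock libraries. AT3G61420 had 11.7% (7.79% to 16.7%) in induced and 3.81% (2.05% to 6.43%) in mock libraries, and AT1G51790 11.4% (8.82% to 14.5%) in induced and 2.77% (1.27% to 5.19%) in mock libraries. These genes were named for their high induced values, so the differences are descriptions. The intervals are exact Clopper-Pearson ones and cover counting error only.

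**Figure D2:**
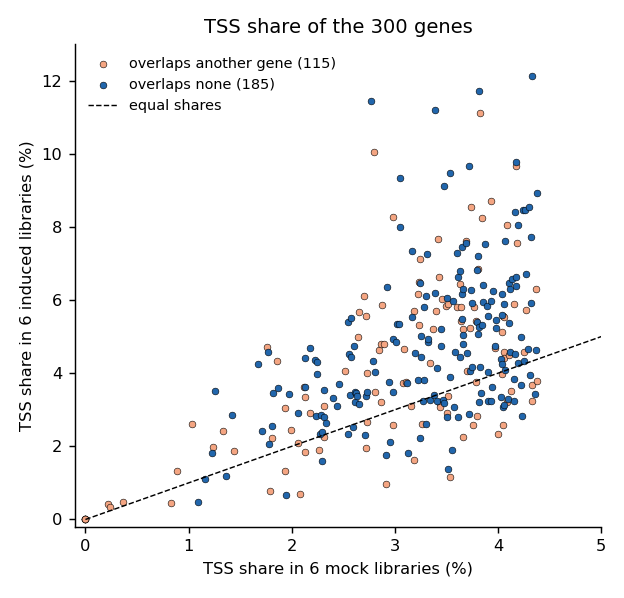
TSS share in the 6 induced libraries against that in the 6 mock libraries, in percent, 1 point per gene for the 300 genes, coloured by whether the gene overlaps another annotated gene; the dashed line marks equal shares. Of the points 223 lie above the line, and 6 lie above 10%.

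Per library, the summed shares of the 300 genes and of the other genes ran in opposite orders among induced libraries. Summed over the 300 genes, the TSS share was 2.71%, 5.84% and 2.12% in the S2P induced and 2.45%, 3.32% and 2.84% in the S2P mock libraries. It was 4.98%, 1.86% and 6.13% in the S5P induced and 3.37%, 3.39% and 3.53% in the S5P mock libraries. S2P induced 1 lay within the range of its mock libraries, and the other induced libraries lay above or below all mock libraries of their antibody. In the other 7862 genes the share was 25.3%, 19.95% and 26.5% in the S2P induced and 18.5%, 18.6% and 16.7% in the S2P mock libraries. In the S5P libraries it was 22.8%, 35.2% and 19.8% in induced and 20.5%, 19.8% and 18.6% in mock. Among the induced libraries of each antibody the order of summed shares was turned round, since the library with the highest share in other genes had the lowest in the 300. As a mean of the 300 genes' own shares, S2P induced 1 (3.536%) and S2P induced 3 (3.562%) were nearly level. S5P induced 2 stayed the lowest S5P induced library, at 3.89%. By that mean, S2P induced 3 and S5P induced 2 lay above all mock libraries of their antibody.

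Averaged over libraries, the summed TSS share of the 300 genes was 3.56 ± 2.00% in S2P induced and 2.87 ± 0.437% in S2P mock libraries (SD, n = 3). For S5P it was 4.32 ± 2.21% in induced and 3.43 ± 0.0849% in mock libraries (SD, n = 3). The differences of 0.687 and 0.893 percentage points in these summed shares are smaller than the spread of the induced libraries. Without S2P induced 2 the S2P difference was -0.456, and without S5P induced 3 the S5P difference was -0.00903 percentage points. The direction of each summed difference thus rests on 1 library. By the mean of the 300 genes' own shares, the differences were 1.224 percentage points for S2P and 1.504 for S5P. By that mean every S5P induced library (3.886% to 6.198%) lay above every S5P mock library (3.501% to 3.601%). For S2P the groups overlapped, as S2P induced 1 (3.536%) lay below S2P mock 2 (3.544%). Some rise is built into the choice of the genes, and no library was left out for that mean.

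**Figure D3:**
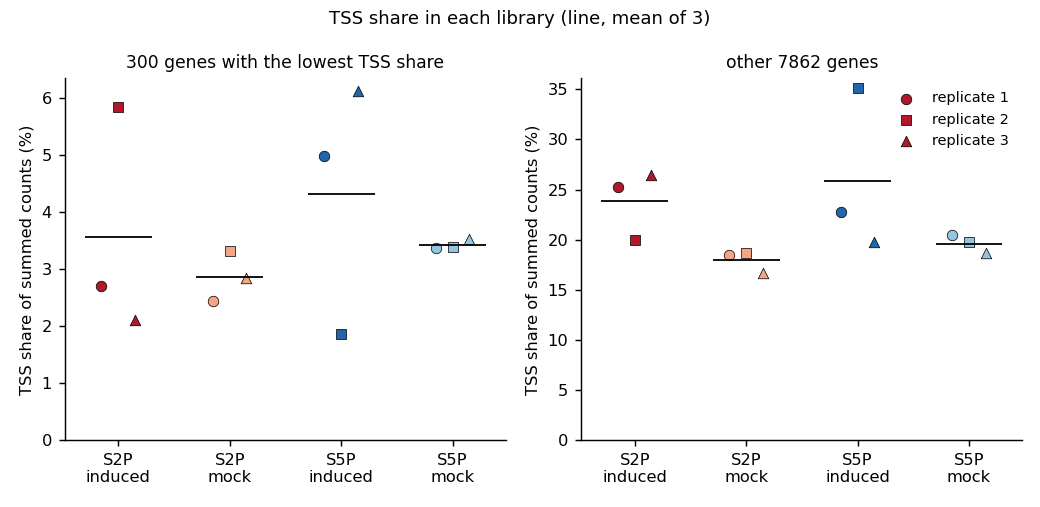
TSS share of summed counts in each library, in percent, for the 300 genes (left) and the other 7862 genes (right), with induced libraries to the left of mock libraries, symbols for replicates and a line at the mean of 3. In the left panel S5P induced 2 is lowest at 1.86%, and in the right panel it is highest at 35.2%.

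The part of all whole gene reads that fell on the 300 genes moved between libraries too. It was 6.43%, 4.03% and 7.42% in the S2P induced and 5.89%, 4.99% and 4.69% in the S2P mock libraries. In the S5P libraries it was 4.53%, 7.76% and 3.94% in induced and 4.83%, 4.92% and 4.29% in mock. Reads outside genes were 28.8%, 20.7% and 33.9% in the S2P induced and 22.6%, 39.2% and 16.5% in the S5P induced libraries. The order of these 6 libraries is the same in both measures for each antibody. In the mock libraries reads outside genes were 26.1%, 29.9% and 25.1% for S2P and 24.3%, 29.2% and 22.8% for S5P. The part of this in the results on induction was not tested.

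The change of occupancy on induction was tested for each antibody on the whole gene and on the gene body with edgeR's quasi-likelihood test. For S2P on the whole gene, 0.016% of all 18798 genes passed an adjusted p of 0.05 and 0 of the 300 did. The lowest adjusted p among the 300 was 0.509. At an unadjusted p under 0.05, 7 were higher in induced (2.33%) and 4 lower (1.33%), beside 5.19% and 2.46% of all genes. For S5P on the whole gene 0.0% of 21954 genes and 0 of the 300 passed, with 3 higher and 4 lower at an unadjusted p under 0.05, beside 4.32% and 3.19% of all genes. In the gene body 0.00626% of 15968 genes passed for S2P and 0.0% of 18722 for S5P, and 0 of the 300 for either. At an unadjusted p under 0.05 in the gene body, S2P had 7 genes above mock (4.16% of all genes) and 5 below (3.48%). S5P had 3 above (4.49% of all genes) and 5 below (3.44%). DESeq2 called none of the members either. On the whole gene these were 0 of 290 members with an adjusted p for S2P, beside 0.56% of all genes with one, and 0 of 300 for S5P, beside 0.625%. In the gene body they were 0 of 297 for S2P, beside 0.359%, and 0 of 300 for S5P, beside 0.314%. At an unadjusted p under 0.05 on the whole gene, DESeq2 gave 13 of the 300 genes above mock for S2P, beside 3.42% of all genes, and 3 below, beside 1.03%. For S5P it gave 15 above, beside 4.36%, and 3 below, beside 1.53%. These DESeq2 shares of the members at an unadjusted p are near those of all genes. Each edgeR count at an unadjusted p under 0.05 is a smaller share of the members than of all genes. All 300 genes passed the count filter in these fits.

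A single S2P library, S2P induced 2, decided the count of calls, though leaving it out also shrank the set of genes tested. On the whole gene that set fell from 18798 to 6849 genes, and in the gene body from 15968 to 4751. Without S2P induced 1 or S2P mock 3 it fell on the whole gene to 7202 or 7126 genes, with 0 called. Without S2P induced 2, 16 of the 288 members tested passed in edgeR on the whole gene, beside 7.68% of all genes tested, 13 higher and 3 lower in induced. In the gene body 17 of 287 passed, beside 7.16%, 15 of them higher. Both are smaller shares of the members than of all genes. The higher ones included PDAT, an acyltransferase gene of oil synthesis, with a log2 fold change of 1.56 (SE 0.36, adjusted p = 0.0243), GTB1 with 1.46 (SE 0.37, adjusted p = 0.0311) and DRP3A, an organelle fission gene, with 1.39 (SE 0.35, adjusted p = 0.0316). The lower ones were PHOT1, a blue light receptor gene, with -1.39 (SE 0.35, adjusted p = 0.0311), BGAL1 and BCA4. In all 6 libraries PDAT had 234, 80.4 and 276 CPM in S2P induced and 113, 93.7 and 67.4 CPM in S2P mock libraries. S2P induced 2 lay within the mock range and the other two induced libraries above it.

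The fold changes of the 300 genes leaned upward, mainly in the shorter ones. For S2P the median log2 fold change on the whole gene was 0.27, against 0.04 for all genes tested, and 202 of 300 were positive (67.3%, against 53.0% of all). For S5P the median was 0.24, against -0.01 for all genes, with 189 positive (63.0%, against 49.4%). In the gene body the medians were 0.27 for S2P and 0.26 for S5P, against -0.02 for all genes in both. With total counts in place of TMM factors, a scaling chosen after seeing the data, the median of all genes moved to -0.16 for S2P and -0.15 for S5P. The medians of the 300 genes were then 0.02 and 0.00033, which is 0.18 and 0.15 above the median of all genes.

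By length, the S2P median of the 300 genes was 0.59 under 4000 bases (51 of 61 positive), 0.35 at 4000 to 8000 bases, 0.12 at 8000 to 12000 bases and -0.08 at 12000 bases or more (19 of 42 positive). In the other genes with enough counts it was 0.13, 0.06, -0.02 and 0.18 in the same order of length. For S5P the medians of the 300 genes were 0.63, 0.37, 0.07 and -0.09, and those of the other genes 0.19, 0.06, -0.00 and 0.01. The longest members thus had a median below 0 for both antibodies. For S5P the upward medians rest on S5P induced 2, without which they were -0.05, -0.04, -0.06 and -0.08 in the 300 genes and 0.17, 0.09, 0.06 and -0.04 in the others. Without S2P induced 2 the S2P medians were 0.79, 0.35, -0.06 and -0.30 in the 300 genes and -0.14, -0.28, -0.36 and 0.02 in the others. Over all lengths, the S2P median of the 300 genes was 0.049 without S2P mock 3, the deepest library.

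**Figure D4:**
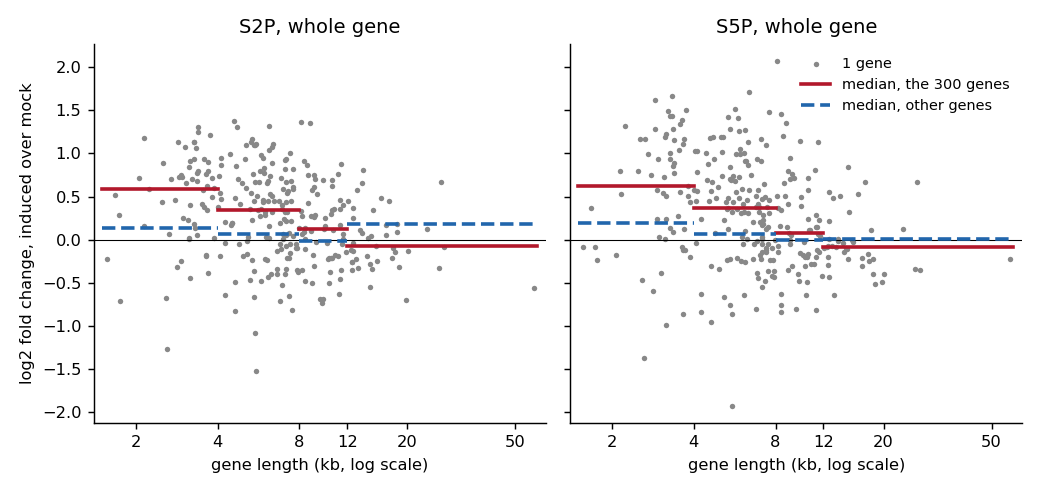
Log2 fold change of whole gene occupancy, induced over mock, against gene length on a log axis, 1 grey point per gene of the 300, for S2P (left) and S5P (right). Red lines give the median of the 300 genes in each length class and dashed blue lines that of the other genes; the red lines step down from 0.59 and 0.63 under 4 kb to -0.08 and -0.09 at 12 kb or more.

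Within each antibody, the induced libraries often held the highest or the lowest whole gene CPM of the 6 libraries. S5P induced 2 was highest in 156 of the 300 genes (52.0%) and in 22.1% of the other genes, and lowest in 116 (38.7%) and in 64.3% of the others. S5P induced 3, a deep library, was lowest in 109 of the 300 (36.3%) and in 14% of the others, and highest in 32 (10.7%) and in 32%. S2P induced 3 was highest in 112 of the 300 (37.3%) and in 15.9% of the others, and lowest in 68 (22.7%) and in 40.1%. The deep S2P induced 2 was lowest in 121 of the 300 (40.3%) and in 12.5% of the others, and highest in 25 (8.33%) and in 30.0%. These shares are descriptions, with no test made.

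GTB1, named global transcription factor group B1 and related to the elongation factor SPT6 of yeast, was highest in the same shallow induced libraries. Its whole gene level was 494, 231 and 618 CPM in S2P induced and 250, 193 and 174 CPM in S2P mock libraries. For S5P it was 318, 1372 and 260 CPM in induced and 216, 215 and 173 CPM in mock libraries. The S5P groups do not overlap, and the S2P groups overlap at S2P induced 2. The log2 fold changes were 1.37 (SE 0.61, adjusted p = 0.642) and 2.07 (SE 0.88, adjusted p = 0.648), and the TSS share was 2.39% in induced and 2.29% in mock libraries. Over 11 settings the S5P log2 fold change ran from 0.64 to 2.49, and its adjusted p from 0.353 to 0.989 in edgeR or DESeq2. For S2P the adjusted p ran from 0.0311, without S2P induced 2, to 0.999.

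BGAL1 had the lowest log2 fold change of the 300 genes on the whole gene for both antibodies, and did not pass the test. Its level was 126, 137 and 61.8 CPM in S2P induced and 463, 141 and 466 CPM in S2P mock libraries. For S5P it was 143, 43.2 and 111 CPM in induced and 463, 182 and 639 CPM in mock libraries. Every induced library was below every mock library of its antibody, although replicate 2 of each mock group lay near the induced level. The log2 fold changes were -1.53 (SE 0.58, adjusted p = 0.557) for S2P and -1.92 (SE 0.69, adjusted p = 0.608) for S5P in edgeR. Over 11 settings they ran from -1.93 to -1.25 and from -2.30 to -1.51, with adjusted p from 0.0377, without S2P induced 2, to 0.999 for S2P and 0.131 to 0.989 for S5P.

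AT1G66880 had the lowest adjusted p of the 300 genes for S2P. Its level was 229, 308 and 109 CPM in S2P induced and 93.8, 93.7 and 98.5 CPM in S2P mock libraries. For S5P it was 287, 112 and 355 CPM in induced and 97.1, 141 and 103 CPM in mock libraries. The S2P groups do not overlap, and in S5P only replicate 2 of the induced group fell within the mock range. The log2 fold change was 1.35 for both antibodies (SE 0.47 and 0.55, adjusted p = 0.509 and 0.647 in edgeR). Without S5P induced 2 it was the 1 member called for S5P, with 1.64 (adjusted p = 0.0274) on the whole gene, beside 1.16% of all genes, and 1.62 (adjusted p = 0.0458) in the gene body, beside 0.653%. It overlaps 2 other annotated genes, so its reads may be shared with them, and its TSS share was 0.696% (0.360% to 1.21%) in induced and 2.08% (1.04% to 3.70%) in mock libraries.

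CHUP1, which anchors chloroplasts to actin and the plasma membrane, also had every induced library below every mock library for both antibodies. Its level was 44.2, 49.3 and 4.75 CPM in S2P induced and 100, 98.9 and 78.4 CPM in S2P mock libraries. For S5P it had 46.1, 25.9 and 44.0 CPM in induced and 84.3, 68.9 and 94.7 CPM in mock libraries. The log2 fold changes were -1.08 (SE 0.44, adjusted p = 0.608) and -0.86 (SE 0.39, adjusted p = 0.656) in edgeR, and the values of the shallowest induced libraries rest on 1 and 3 counts. AtPOT1b, a gene of the telomere protein POT1 family, had -1.27 (SE 0.49, adjusted p = 0.580) and -1.37 (SE 0.51, adjusted p = 0.608), with its S2P groups overlapping.

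Other members with small unadjusted p did not pass either. With values above 0 for S2P were ATXRCC1, a DNA repair gene, with a log2 fold change of 1.31 (SE 0.52), AT1G33360 with 1.31 (SE 0.57) and AT1G36990 with 1.13 (SE 0.50). With values above 0 for S5P were AT5G47480 (MAG5), a gene of protein export from the endoplasmic reticulum, with 1.72 (SE 0.75), NOF1, a nucleolar factor gene, with 1.52 (SE 0.72) and AT1G68820 with 1.34 (SE 0.62). With values below 0 were the carbonic anhydrase gene BCA4, with -0.83 (SE 0.35) for S2P, PHOT1, with -0.82 (SE 0.39) for S2P, and the nucleobase transporter gene NAT12, with -0.83 (SE 0.39) for S5P. Their adjusted p ran from 0.590 to 0.665 in edgeR. In the gene body, AT3G31005 had -1.60 (SE 0.55, adjusted p = 0.514) for S5P, and it is 1 of the 3 genes whose windows and whole gene counts disagree.

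Groups that do not overlap were counted on CPM, without TMM factors, as a further description. Scaled to total counts, the median log2 fold change of all genes on the whole gene was -0.16 for S2P and -0.15 for S5P. For S2P on the whole gene, every induced library was below every mock library in 24 of the 300 genes (8.00%), beside 9.31% of all genes tested, and above in 3 (1.00%), beside 3.41%. For S5P the induced libraries were below in 44 (14.7%, beside 13.7% of all genes) and above in 11 (3.67%, beside 2.95%). Both antibodies had the induced libraries below in 14 genes, which are 58.3% of the 24 and 31.8% of the 44. They are 4.67% of the 300 genes, and 2.97% of the 18593 genes tested for both antibodies had the same pattern. Besides BGAL1 and CHUP1 these included ATM, the callose synthase genes GSL8 and GSL12, the myosin gene XI-I, the polymerase III subunit gene NRPC1, the calcium pump gene ACA9 and the microtubule-associated QWRF8. No member was above in both, beside 1.02% of all genes. In the gene body, the induced libraries were below in 23 of the 300 genes for S2P (7.67%, beside 8.98% of all) and in 37 for S5P (12.3%, beside 12.2%). They were above in 5 for S2P (1.67%, beside 3.46%) and in 8 for S5P (2.67%, beside 3.22%).

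The 11 genes above mock for S5P on the whole gene included GTB1, the ubiquitin ligase gene KAK, the proteasome subunit gene RPN1A and the SIN3-like corepressor genes SNL2 and SNL3. KAK had 349.9, 388 and 360 CPM in S5P induced and 289.6, 278 and 236 CPM in S5P mock libraries. Its induced libraries lay close together, S5P induced 2 included, and the log2 fold change was 0.70 (SE 0.60, adjusted p = 0.777 in edgeR). RPN1A had 295, 699 and 284 CPM in S5P induced and 282, 256 and 226 CPM in S5P mock libraries. Here S5P induced 2 stood far above the rest, and the log2 fold change was 1.05 (SE 0.70, adjusted p = 0.724 in edgeR).

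The long genes among the 14 had small log2 fold changes. ATM had 212, 213 and 252 CPM in S2P induced and 281, 292 and 253 CPM in S2P mock libraries. For S5P it had 254, 164 and 192 CPM in induced and 282, 361 and 261 CPM in mock libraries. Its log2 fold changes with TMM factors were -0.08 (SE 0.48, adjusted p = 0.986) and -0.35 (SE 0.55, adjusted p = 0.886) in edgeR. The CPM values here are scaled to all reads in nuclear genes, and TMM factors reduce the difference. GSL12 had -0.46 (SE 0.40) for S2P and -0.20 (SE 0.46) for S5P, GSL8 -0.07 (SE 0.46) and -0.00 (SE 0.48), and XI-I -0.36 (SE 0.39) and -0.21 (SE 0.46). TOR, lower in each S2P induced library, had 153, 205 and 171 CPM in S2P induced and 206, 229 and 207 CPM in S2P mock libraries. For S5P it had 194, 77.7 and 221 CPM in induced and 186, 259 and 230 CPM in mock libraries, and these groups overlap.

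**Figure D5:**
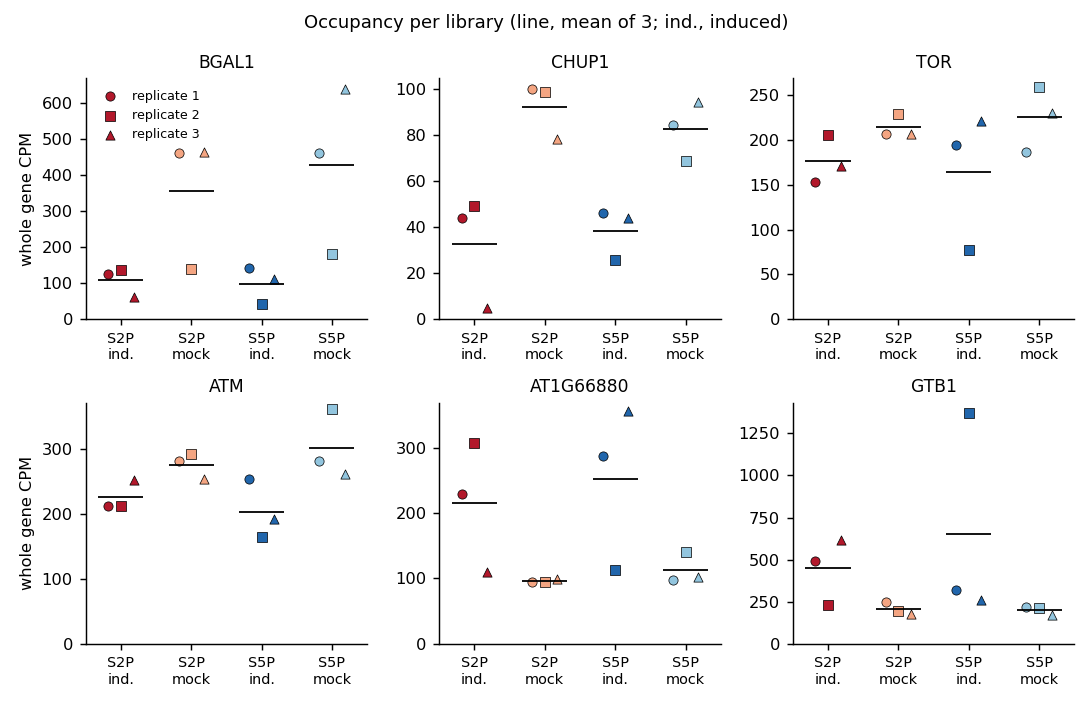
Whole gene occupancy in CPM in each library for 6 of the 300 genes, induced libraries to the left of mock libraries for each antibody, with symbols for replicates and a line at the mean of 3. BGAL1, CHUP1 and ATM lie lower in every induced library of both antibodies, while the S5P mean of GTB1 is set by S5P induced 2 at 1372 CPM.

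Whether single genes shifted reads between TSS and gene body could be tested for few members. Only 16 of the 300 had enough TSS counts for S2P and 46 for S5P, those with the higher TSS counts, so they do not stand for the group. The mock counts that chose the members also enter this fit, so some rise is built in. The members' values here, p-values included, are a description only. None passed, beside 0.0% of 2600 and 0.0% of 5066 genes, and none had an unadjusted p under 0.05 in edgeR, beside 0.654% of all genes above and 0.885% below for S2P and 0.257% above and 1.3% below for S5P. DESeq2 called 0 members, beside 0.0% of all genes. GLT1 had a log2 change of TSS over gene body of 1.15 (SE 0.98, adjusted p = 0.999 in edgeR) for S2P and 0.69 (SE 0.70, adjusted p = 0.999) for S5P. Its TSS share, over 71 TSS counts in mock, was 5.67% (4.87% to 6.56%) in induced and 2.65% (2.08% to 3.34%) in mock libraries. With such standard errors a change of this size was not detectable per gene.

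The antibodies were compared in induced seedlings and in their responses. Among the 300 genes, 0 passed for S5P over S2P in induced seedlings (0.0% of 23364 genes), and 0 for the difference of the responses, S5P minus S2P (0.0% of 23793 genes). None of the 300 had an unadjusted p under 0.05 in either comparison in edgeR, beside 0.163% of all genes above and 0.535% below in the first and 0.261% above and 0.374% below in the second. DESeq2 called 0 of the members in both, beside 0.0% of all genes. At an unadjusted p under 0.05 it gave 0 members above and 1 below in the first, beside 0.0599% and 0.0899% of all genes. The median log2 differences of the 300 genes were -0.09 in the first, beside -0.02 for all genes, and 0.03 in the second, beside -0.01. For GTB1 the difference of responses was 0.64 (SE 0.97), for BGAL1 -0.40 (SE 0.85), for AT1G66880 -0.01 (SE 0.67) and for CHUP1 0.22 (SE 0.61), where edgeR gave all 4 an adjusted p of 1. Each standard error exceeds its difference.

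Other choices of the rule kept most of the group. With a minimum sum of 100 counts, 270 of the 300 were kept, and with every mock library scaled to the same total 219. A minimum sum of 400 counts kept 248. These are the members with at least 400 counts, and leaving out other genes cannot displace them. The 248 were thus fixed in advance and do not check the group. Leaving out 1 mock library kept 222 genes, without S2P mock 3, to 287. The S2P mock libraries alone gave 227 of the 300 and the S5P mock libraries alone 201.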

How the data were processed

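The authors deposited raw read counts per gene, in separate tables for whole gene, TSS and gene body windows, for 12 libraries. Trimmomatic, HTSeq and build TAIR10 are named, without versions, per the submitters' processing notes; no source used here states the aligner, strand setting or window bounds. The counter's 5 summary lines and 279 organelle genes were left out. CPM uses a library's nuclear total for that window. Symbols, lengths and overlaps came from RefSeq genes of assembly TAIR10.1, which matched 8157 of 8162 genes.

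Each antibody's 6 libraries were fitted over all genes with edgeR 4.0.16 (quasi-likelihood test, TMM, filterByExpr with a minimum count of 10, Benjamini-Hochberg adjusted p of 0.05) in R 4.3.3. DESeq2 1.42.0 was an alternative. SEs came from the F statistic. For TSS to gene body balance, each library was a block and the window's response to induction was tested. The scripts were tested on simulated counts.

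Named genes were the 12 lowest shares, the boundary, the 10 highest gene body levels, the smallest p in each direction, extreme induced shares and class examples; TOR, ATM, KAK, RPN1A and the genes of families were named after their values were seen. Members and lists were chosen with earlier results of these data known. Intervals (95%, exact Clopper-Pearson) and limits from 0 counts (3 counts of the pooled total) cover counting error only.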

Additional observations from a re-analysis of the deposited data

How the results depend on the processing

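The count of the 300 genes past the threshold stayed 0 with RLE factors, without a count filter, with DESeq2, with total counts and with the replicate number as a block, for whole gene and gene body of both antibodies. Few of all genes passed there either. Without a filter, 72 and 28 of 32344 passed for S2P and S5P on the whole gene, and 68 of 29212 and 49 of 29206 in the gene body. With total counts, 14 of 18798 and 7 of 15968 passed for S2P and 0 for S5P. The replicate block gave 2 of 18722 for the S5P gene body and 0 elsewhere, RLE factors 0, and DESeq2 0.314% to 0.625%. Leaving out 1 library gave 0 to 16 calls for S2P and 0 to 1 for S5P on the whole gene, and 0 to 17 and 0 to 1 in the gene body. The 16 (13 higher) and 17 (15 higher) came without S2P induced 2, beside 7.68% of 6849 and 7.16% of 4751 genes tested. The 1, AT1G66880, came without S5P induced 2, beside 1.16% and 0.653% of the genes tested. Median log2 fold changes of the 300 genes with 1 library left out ran from 0.049 to 0.343 (S2P whole gene), -0.050 to 0.366 (S5P whole gene), 0.081 to 0.403 (S2P gene body) and -0.116 to 0.479 (S5P gene body), the lowest without S2P mock 3 for S2P and without S5P induced 2 for S5P. With total counts the whole gene medians were 0.020 for S2P and 0.00033 for S5P. The S5P balance median ran from -0.387 to 0.604, that of S5P over S2P from -0.545 to -0.00704 and that of the difference of responses from -0.321 to 0.132. The S2P balance could be recomputed for members in only 3 of 6 leave-outs (0.047 to 0.342), since no member passed the count filter in the others; without that filter its median was 0.292, against -0.058 with it. The difference in summed TSS share with 1 library left out ran from -0.456 to 1.41 percentage points for S2P and -0.009 to 2.13 for S5P. The induced ranking kept 166 members, and leaving out 1 mock library kept 222 to 287. The ranking without overlapping genes kept 185, which are all members that overlap none, a number fixed in advance. Replicate numbers were not treated as pairs in the main fits. Deviations from the group means correlated at 0.228, -0.151 and -0.374 between same-numbered S2P libraries and at -0.019, 0.308 and 0.432 between S5P libraries. Between same-numbered induced libraries of the 2 antibodies they correlated at -0.309, -0.711 and -0.575. The highest value, 0.795, was between S5P induced 3 and S2P induced 2, which differ in number. With 3 libraries per group, whose deviations depend on each other, these values cannot settle whether the numbers pair the libraries. With the replicate block the whole gene medians were 0.24 and 0.17. Except where a library's own removal is named, the cause was not tested. Depth limits the TSS values, as the median member had 23 TSS counts in 6 mock libraries.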

Other observations

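Genes named for an embryo defective phenotype, which are needed for seed development, were 14 of the 300 (4.67%) and 153 of all 8162 genes (1.87%). Among genes of 6000 bases or more they were 13 of 176 members (7.39%) and 22 of 708 other genes (3.11%). These names were counted after the list of members had been seen, and no test was made. By chromosome, 86, 46, 54, 42 and 72 of the 300 genes lie on chromosomes 1 to 5, and 2139, 1235, 1624, 1270 and 1889 of all 8162.

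Of the 9 pseudogenes in the group, AT5G14830, of 3334 bases, had the lowest mock share. Its TSS share was 0.470% (exact Clopper-Pearson interval 0.173% to 1.02%) in induced and 1.09% (0.474% to 2.14%) in mock libraries. Its whole gene level was 337, 84.7 and 513 CPM in S2P induced and 281, 156 and 106 CPM in S2P mock libraries. For S5P it was 181, 898 and 82.7 CPM in induced and 197, 218 and 145 CPM in mock libraries. S5P induced 2 and S2P induced 3 were again the highest, and the groups overlap for both antibodies.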
